A study of Homo sapiens with 9 samples.

Results

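The genes described here encode the nuclear-encoded subunits of oxidative phosphorylation, the chain of protein complexes in the inner mitochondrial membrane that moves electrons to oxygen and makes ATP. They were chosen by name from the protein-coding genes of the deposited table, taking the NDUFA, NDUFB, NDUFC, NDUFS and NDUFV genes of complex I, SDHA to SDHD of complex II, the UQCR genes and CYC1 of complex III, the COX4 to COX8 genes of complex IV and the ATP5 genes of complex V. Of 90 matching genes, 68 had a mean of at least 10 normalized counts over the 9 libraries and were tested, among 15230 tested genes and 62710 genes in the table. By complex these were 29 of 37 genes for complex I, 2 of 4 for complex II, 9 of 10 for complex III, 12 of 19 for complex IV and 16 of 20 for complex V. NDUFA4 carries a complex I name, and it was counted with complex IV, where its protein sits, as was its paralog NDUFA4L2.

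A375R is a line of human A375 melanoma cells that grows in the presence of PLX4032, an analog of the BRAF inhibitor vemurafenib. The cells were treated for 2 h with 10 µM R4VPL3-1, a PROTAC-like molecule that joins a binder of the ubiquitin ligase RNF4 to a recruiter of the ubiquitin ligase VHL, or with VHL-r, the part of that molecule that binds VHL, at the same dose and for the same time, and the control cells received the solvent DMSO. Each treatment had 3 biological repeats, called replicates 1, 2 and 3, and values of a treatment are given in that order throughout. The titles of the control samples read WT and give no dose or time, and the study's description names DMSO as its control. The deposited column names give 2 h for control replicates 2 and 3 and no time for replicate 1. All 9 libraries come from 1 resistant line without a parental line beside it, and per the study's methods A375R cells were grown in medium containing PLX4032, stated for the line as a whole and not by treatment.

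Complex I, NADH dehydrogenase, and complex II, succinate dehydrogenase, pass electrons to ubiquinone, complex III passes them to cytochrome c, and complex IV, cytochrome c oxidase, passes them to oxygen. Complexes I, III and IV pump protons, and complex V, ATP synthase, uses the proton gradient to make ATP. All of them but complex II combine subunits encoded in the nucleus with subunits encoded by mitochondrial DNA. Their proteins are long-lived, so the mRNA levels reported here describe transcripts and not the amount or the activity of the complexes.

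The libraries held between 26435568 and 32085626 reads assigned to genes, as recovered from the deposited values, and the size factors by which the authors divided them lay between 0.934 and 1.101. The melanoma genes SOX10 and CSPG4 had means of 12050.5 and 14766 normalized counts, and MITF had 1260.2. The other listed melanoma genes S100B, S100A1, AXL and NGFR each had a mean of at least 10. Of the pigment genes, PMEL and DCT also had means of at least 10, while MLANA was listed at 0 and TYR had 0.354. Marker genes of leukocytes and endothelial cells had means under 10, and the fibroblast genes COL1A1, COL1A2 and DCN had 1065, 705 and 103. Of the keratinocyte genes, KRT5 had a mean of at least 10, KRT14 had 295, KRT1 0.111 and TP63 0.976.

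Among the subunit genes, single genes of complex III and complex V had the highest levels per kilobase. Per kilobase of canonical transcript, UQCRH, the hinge protein of complex III, had a mean of 18582 normalized counts over the 9 libraries. Next came ATP5F1B, the catalytic beta subunit of ATP synthase, with 17664 per kilobase. In the DMSO libraries these levels were 18813 ± 249 and 17571 ± 204 per kilobase (SD, n = 3), a gap larger than either spread, while in VHL-r they were 18378 ± 804 and 17680.1 ± 808, within about 1 SD of each other. UQCRH shares 18.04% of the 100-base windows of its exons with another place in the genome, among them its retrocopy UQCRHL, so reads of these 2 genes are uncertain individually. COX4I1 and COX6B1 of complex IV followed, at 10469.5 and 9480.3 per kilobase, and ATP5MC2 at 8192 and NDUFB9, the highest gene of complex I, at 8028 were close to each other.

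**Figure D1:**
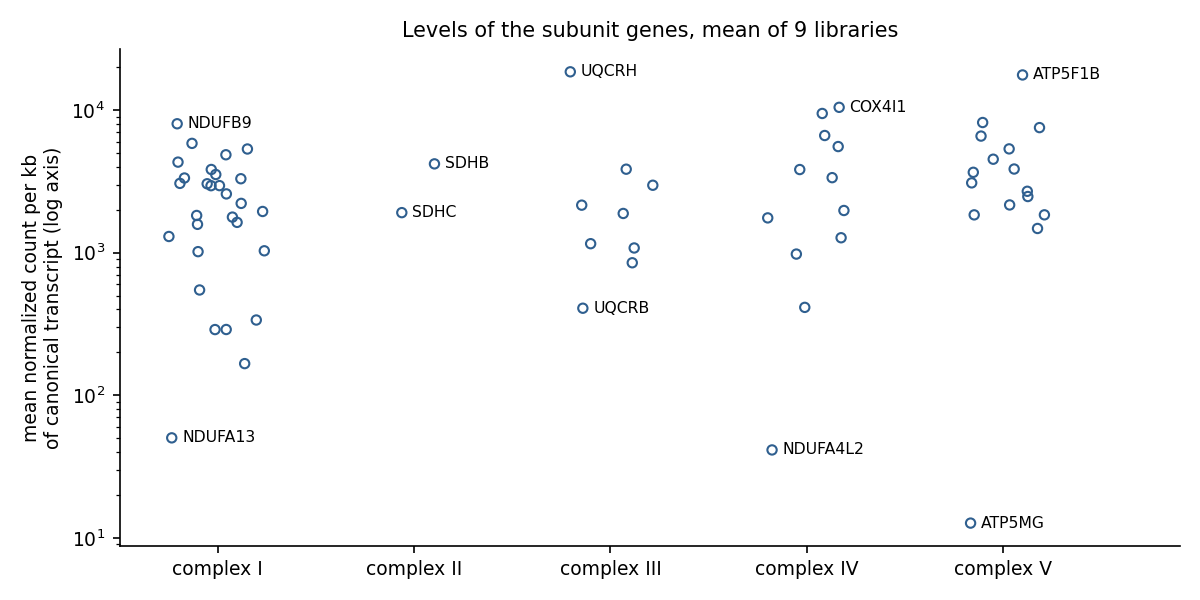
The mean normalized count of each of the 68 tested subunit genes over the 9 libraries, divided by the length of its canonical transcript in kilobases, on a log axis, by complex. Each circle is a gene, and the highest and lowest of each complex are named, from 18582.5 per kilobase for UQCRH to 12.7 for ATP5MG.

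Leaving out the 3 tested genes with means under 100, the median level per kilobase was 3665 for the 15 genes of complex V, 3361 for the 11 of complex IV, 3055 for the 2 of complex II, 2402 for the 28 of complex I and 1885 for the 9 of complex III. The ranges overlapped widely, from 167 to 8028 per kilobase in complex I and from 1479 to 17664 in complex V. The level per kilobase depends on the transcript taken as canonical: NDUFS1, which carries iron-sulfur clusters of the electron path in complex I, has a canonical transcript of 11660 bases and came out at 289 per kilobase although its mean normalized count was 3368.

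The 22 matching genes with a mean under 10 were not a list of unused isoforms. Of these, 14 encode a subunit or its common form and not an isoform of particular tissues. NDUFA7, NDUFA9, NDUFB5, NDUFC2, SDHA, UQCR11, COX8A, ATP5MF and ATP5PO were listed at 0 in all 9 libraries. SDHA (chromosome 5 of GRCh38 from 218303 to 257082), the flavoprotein that oxidizes succinate, was among them, so complex II was measured only through SDHB and SDHC. NDUFV2, NDUFB8, SDHD, COX6A1 and NDUFA11 had means of 0.312, 0.989, 0.457, 3.93 and 6.85 normalized counts.

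These 14 genes had a position in common that the selection did not use. In GENCODE 44, each had between 91.9% and 100% of its exon bases inside the span, introns included, of another gene on the same strand, in 12 of the 14 a gene without a name, with a mean of at most 52.7 normalized counts of its own. Exons of the neighbour covered less of them, from 7.26% for NDUFB5 to 35.4% for COX8A. Of the 90 matching genes, 20 had at least 80% of their exon bases inside such a span, and 18 of these had a mean under 10. The other 2, NDUFA13 at 26.2 and ATP5MG at 14.2 normalized counts, were among the 3 lowest of the tested genes. Of the 69 genes with under 20% of their exon bases inside such a span, 66 had a mean of at least 10, and the 3 that did not, COX4I2, COX6A2 and COX7A1, are isoforms of particular tissues.

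The pattern was not limited to oxidative phosphorylation. Of all protein-coding genes, 13.1% of the 1987 with at least 80% of their exon bases inside another gene on the same strand had a mean of at least 10, against 67.8% of the 17289 with under 20%. Whether reads were counted over exons or over whole genes is not given in the sources used here, and the part of the overlap in the values near 0 was not tested. No reading of expression was taken from the 14 genes. NDUFA13 and ATP5MG carry the same limit and stay in the counts and medians of the 68 tested genes below.

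After 2 h, 1 of the 68 tested subunit genes passed the test. Against DMSO, NDUFV3 of complex I was higher after VHL-r and after R4VPL3-1, and no other subunit gene passed an adjusted p of 0.05 in either direction. Between R4VPL3-1 and VHL-r none passed. The values tested were log2(normalized count + 1), fitted by limma with treatment as the only factor over the 9 libraries, and p-values were adjusted by Benjamini-Hochberg over the 15230 genes tested. Differences are log2 differences on that scale, and in bulk RNA fewer expressing cells and less RNA per cell cannot be told apart.

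In VHL-r against DMSO, 1 of 68 subunit genes was called higher and 0 lower, where 10.3% and 9.51% of all genes tested were called. In R4VPL3-1 against DMSO it was again 1 higher and 0 lower, where 13.1% and 11.8% of all genes were called. In R4VPL3-1 against VHL-r it was 0 in each direction, where 1.14% and 0.729% of all genes were called. At an unadjusted p under 0.05 there were 1, 8 and 0 subunit genes in the 3 comparisons, beside 4609, 5410 and 1508 of all 15230 genes. The fits by edgeR and DESeq2 on the recovered reads also called 0 subunit genes in R4VPL3-1 against VHL-r. The comparisons with DMSO share their control libraries, so the repeat of NDUFV3 in both is not independent.

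The differences themselves were small. The median absolute log2 difference of the 68 genes was 0.031 in VHL-r against DMSO, 0.045 in R4VPL3-1 against DMSO and 0.032 in R4VPL3-1 against VHL-r, beside 0.12, 0.14 and 0.070 over all genes tested. Abundant genes spread less, and over the 5862 genes whose mean reached 1000 these medians were 0.068, 0.079 and 0.040, beside 0.031, 0.045 and 0.028 for the 58 subunit genes at that level. Of the 5862 genes, 20.8%, 26.7% and 2.64% were called in the 3 comparisons, and 0 of the 58 subunit genes.

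The libraries were precise enough to bound most of the genes. In VHL-r against DMSO the 95% interval of the difference lay within a 1.2-fold change in either direction for 62 of the 68 genes, in R4VPL3-1 against DMSO for 63, and in R4VPL3-1 against VHL-r for 62. The genes outside were NDUFA13, NDUFA4L2 and ATP5MG in each comparison, whose means were under 100, with NDUFV3, NDUFB1 and UQCRHL in VHL-r against DMSO, NDUFV3 and NDUFA3 in R4VPL3-1 against DMSO, and NDUFB1, UQCRHL and COX7B2 between the compounds. Over the 9 libraries, the 65 subunit genes with a mean of at least 100 had coefficients of variation from 2.03% for SDHB to 7.71% for UQCRHL, with a median of 4.48%, beside a median of 6.95% over the 11007 tested genes at that level.

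**Figure D2:**
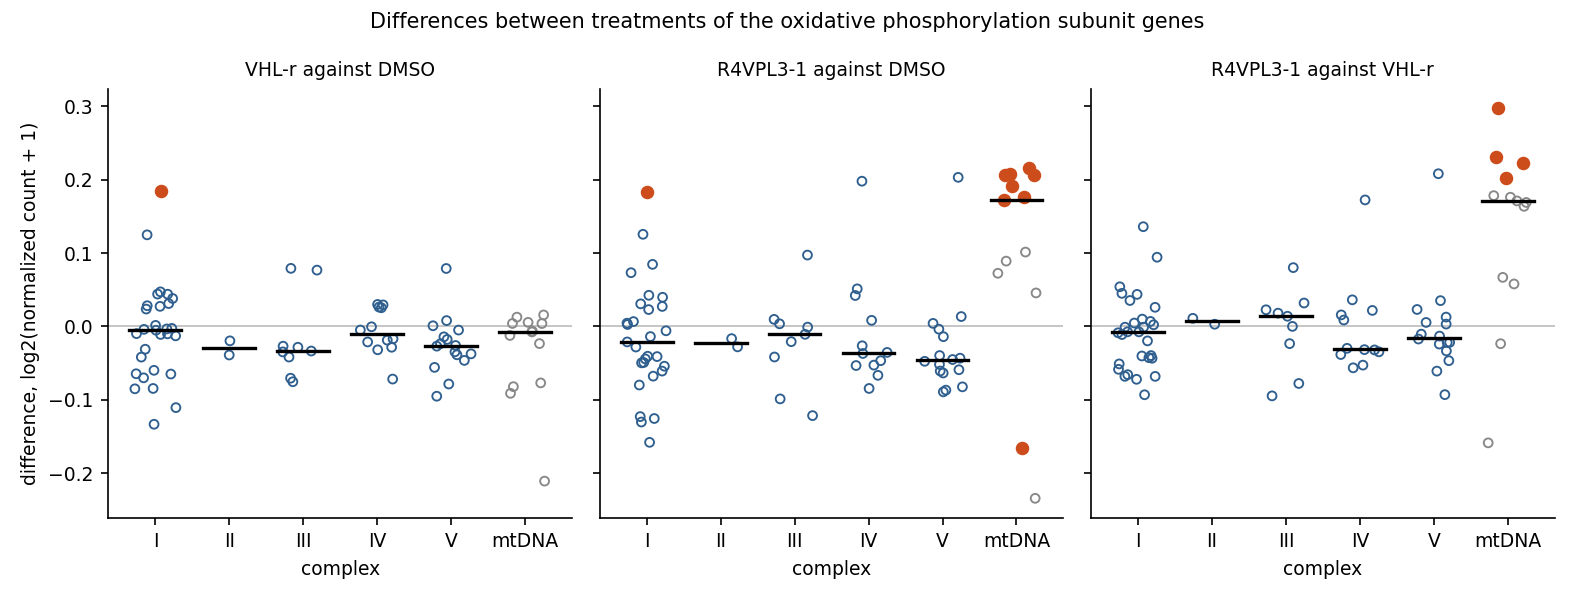
The log2 difference of each tested subunit gene in the 3 comparisons, by complex, with the 13 subunits encoded by mitochondrial DNA at the right of each panel (grey circles). Bars are medians and filled orange circles are genes with an adjusted p of at most 0.05: 1 of 68 nuclear genes, NDUFV3, in each comparison with DMSO, and none between the compounds.

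NDUFV3 (ENSG00000160194, chromosome 21 of GRCh38 from 42879644 to 42913304, plus strand) encodes an accessory subunit of the NADH-oxidizing tip of complex I. It stood at 878, 838 and 908 normalized counts in DMSO, 1018, 952 and 1013 in VHL-r and 1043, 982 and 956 in R4VPL3-1. All 6 libraries of the compounds lay above all 3 of DMSO, and the compounds overlapped each other. Mean levels were 875 ± 34.8 normalized counts in DMSO, 994 ± 36.8 in VHL-r and 994 ± 44.6 in R4VPL3-1 (SD, n = 3 each). In VHL-r against DMSO the difference was 0.18 (standard error 0.061, 95% interval 0.057 to 0.31, adjusted p = 0.0377), and in R4VPL3-1 against DMSO it was 0.18 (standard error 0.061, 95% interval 0.056 to 0.31, adjusted p = 0.0321). Between the compounds it was -0.00097 (standard error 0.061, 95% interval -0.13 to 0.13, adjusted p = 0.999), which bounds any difference to below 1.2-fold in either direction. The call is a narrow one. It was lost without DMSO replicate 1 (adjusted p = 0.08 for VHL-r and 0.0679 for R4VPL3-1), without DMSO replicate 2 (0.164 and 0.144), without VHL-r replicates 1 or 3 (0.112 and 0.0925) and without R4VPL3-1 replicates 1 or 2 (0.154 and 0.0626). The gene makes a long and a short protein from alternative splicing, which counts per gene do not separate.

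The RefSeq promoter of NDUFV3 (GRCh38.p14, chr21:42893059-42893358, plus strand) is shown because it belongs to the subunit gene that passed the test. It covers 250 bases before the annotated start and 50 after it, lies inside the span that the deposited table gives the gene, and reads 5′ to 3′ without a match to any of the 3 motifs described further on.
NDUFV3: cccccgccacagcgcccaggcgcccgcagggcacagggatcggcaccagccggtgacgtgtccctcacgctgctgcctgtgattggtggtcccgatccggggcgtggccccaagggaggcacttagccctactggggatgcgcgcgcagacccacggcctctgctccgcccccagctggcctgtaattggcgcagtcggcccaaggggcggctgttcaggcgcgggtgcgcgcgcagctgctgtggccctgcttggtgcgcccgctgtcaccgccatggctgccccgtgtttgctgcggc

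In complex I, 29 genes were tested and NDUFV3 was called. The median differences of the complex were -0.0052 in VHL-r against DMSO, -0.021 in R4VPL3-1 against DMSO and -0.0074 in R4VPL3-1 against VHL-r, beside medians of all genes of -0.0045, -0.0063 and -0.0056. NDUFV1, which binds FMN and takes electrons from NADH, was at 4598, 4446 and 4550.1 normalized counts in DMSO, 4418, 4726 and 4822 in VHL-r and 4649, 4726 and 4514 in R4VPL3-1. Its differences from DMSO were 0.038 (adjusted p = 0.629) for VHL-r and 0.031 (adjusted p = 0.676) for R4VPL3-1. NDUFS1 was at 3347, 3399 and 3399 normalized counts in DMSO, 3340.4, 3236 and 3483 in VHL-r and 3424, 3215 and 3471 in R4VPL3-1, with all 3 treatments overlapping and differences of -0.013 and -0.0059. The core subunits NDUFS3, NDUFS7 and NDUFS8 had differences between -0.13 and -0.0052 in the comparisons with DMSO.

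Of the accessory subunits of complex I, those with the lowest adjusted p below DMSO were NDUFS6, NDUFA3 and NDUFB7, and none passed the test. NDUFS6, a zinc-binding subunit of the peripheral arm, was at 2385, 2288 and 2332 normalized counts in DMSO, 2152, 2191 and 2361 in VHL-r and 2085, 2152 and 2197 in R4VPL3-1. Its R4VPL3-1 libraries lay below the DMSO libraries, with a difference of -0.12 (standard error 0.05, 95% interval -0.23 to -0.019, adjusted p = 0.0793). NDUFA3 was at 556, 532 and 545 normalized counts in DMSO, 489, 539.9 and 533 in VHL-r and 489, 488 and 485 in R4VPL3-1, and its R4VPL3-1 libraries lay below those of both other treatments. Its difference from DMSO was -0.16 (standard error 0.071, 95% interval -0.31 to -0.0094, adjusted p = 0.116), the lowest of the 68 genes. NDUFB7, in the membrane arm, was at 2974, 3125 and 2947 normalized counts in DMSO, 2553, 2823 and 3019 in VHL-r and 2586, 2951 and 2736 in R4VPL3-1, where the treatments overlapped, with -0.13 (adjusted p = 0.123) for R4VPL3-1.

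Above DMSO, after NDUFV3, came NDUFA6 and NDUFA2. NDUFA6, an LYR-motif subunit that holds the acyl carrier protein in complex I, was at 1029.7, 1118 and 1049.5 normalized counts in DMSO, 1041, 1091 and 1135 in VHL-r and 1151, 1172 and 1163 in R4VPL3-1. The 3 R4VPL3-1 libraries lay above all 6 others, with a difference from DMSO of 0.13 (standard error 0.058, 95% interval 0.0053 to 0.25, adjusted p = 0.123) and from VHL-r of 0.094 (adjusted p = 0.673). NDUFA2 was at 1318, 1391 and 1398 normalized counts in DMSO, 1375, 1504 and 1607 in VHL-r and 1328, 1537 and 1498 in R4VPL3-1, overlapping, with 0.12 (adjusted p = 0.21) for VHL-r.

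**Figure D3:**
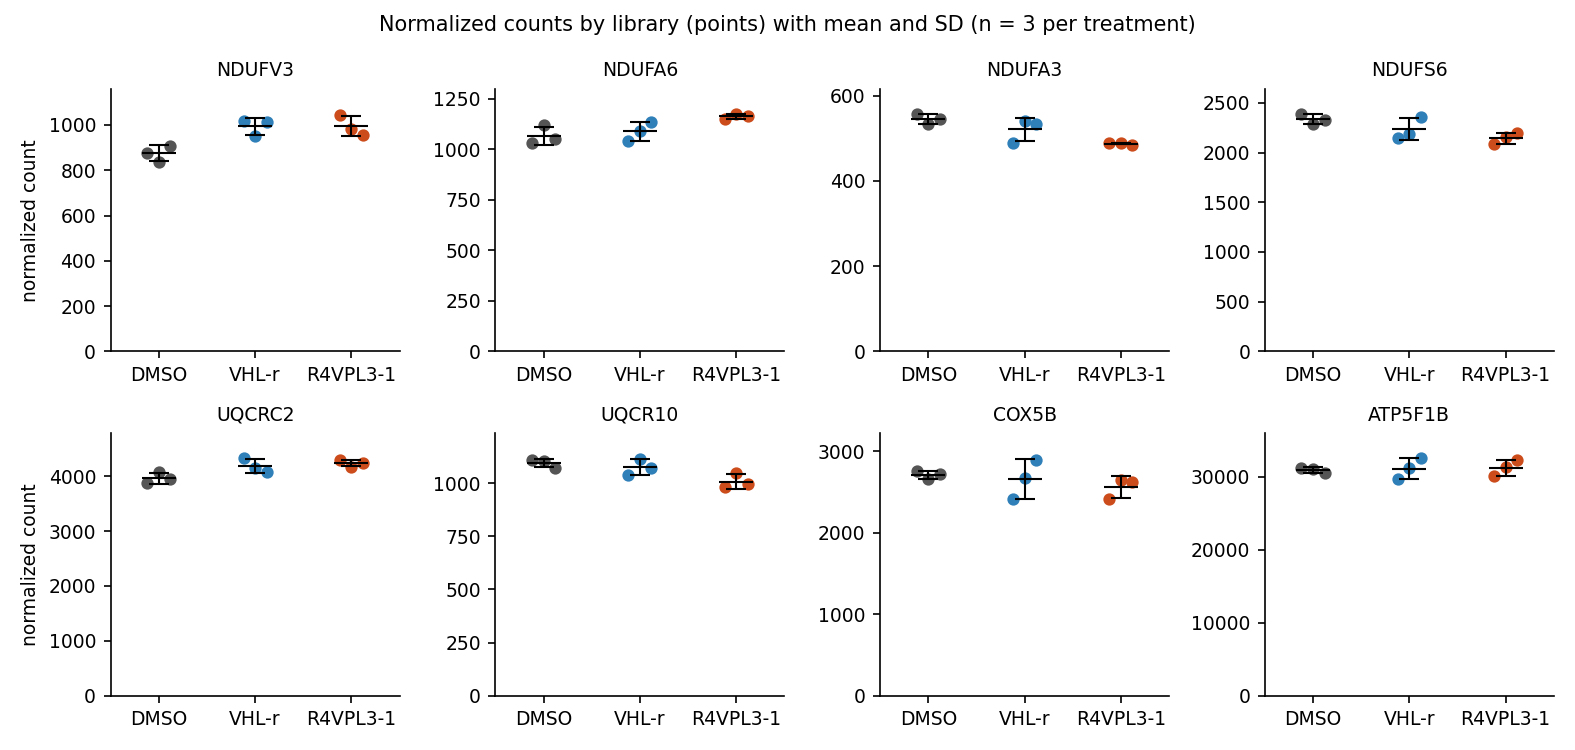
Normalized counts of 8 subunit genes in each library (points, replicates 1 to 3 from left to right within a treatment), with the mean and SD of each treatment (n = 3) and axes that start at 0. NDUFV3 is higher in all 6 compound libraries than in DMSO, while COX5B and ATP5F1B overlap between VHL-r and DMSO.

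Complex II was represented by SDHB, its iron-sulfur subunit, and SDHC, a membrane anchor. SDHB was at 4436, 4306 and 4157 normalized counts in DMSO, 4156, 4310.0 and 4256 in VHL-r and 4207, 4280.1 and 4259.8 in R4VPL3-1. The treatments overlapped, and with a coefficient of variation of 2.03% it was the steadiest of the subunit genes, with differences of -0.02 (standard error 0.043, 95% interval -0.11 to 0.069, adjusted p = 0.813) for VHL-r and -0.017 (standard error 0.043, 95% interval -0.11 to 0.072, adjusted p = 0.826) for R4VPL3-1. SDHC was at 2559, 2553 and 2495 normalized counts in DMSO, 2492, 2429.7 and 2483 in VHL-r and 2290.5, 2506 and 2679.7 in R4VPL3-1, where the VHL-r libraries lay just below those of DMSO and the R4VPL3-1 libraries spread on both sides of them. Its difference was -0.039 (adjusted p = 0.688) for VHL-r and -0.028 (adjusted p = 0.759) for R4VPL3-1.

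In complex III, 9 genes were tested and none was called, with median differences of -0.033, -0.011 and 0.014 in the 3 comparisons. The core proteins UQCRC1 and UQCRC2 line the matrix side of the complex. UQCRC1 was at 4902, 4713 and 4754 normalized counts in DMSO, 4357, 4748 and 4951 in VHL-r and 4637, 4891 and 4735 in R4VPL3-1, overlapping, with differences of -0.033 and -0.011 from DMSO. UQCRC2 was at 3867, 4066 and 3945 normalized counts in DMSO, 4323, 4157 and 4070.2 in VHL-r and 4292, 4175 and 4238 in R4VPL3-1, and all 6 compound libraries lay above the DMSO libraries. That separation did not pass the test, with 0.079 (standard error 0.043, 95% interval -0.011 to 0.17, adjusted p = 0.231) for VHL-r and 0.10 (standard error 0.043, 95% interval 0.0071 to 0.19, adjusted p = 0.111) for R4VPL3-1.

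The subunits of complex III that carry the redox centres, UQCRFS1, the Rieske iron-sulfur protein, and CYC1, cytochrome c1, were likewise not called. UQCRFS1 was at 2712, 2701 and 2503 normalized counts in DMSO, 2536, 2587 and 2634 in VHL-r and 2579.9, 2646 and 2705 in R4VPL3-1, with differences of -0.028 and 0.0036 from DMSO. CYC1 was at 4847, 4803 and 4665 normalized counts in DMSO, 4163, 4650.4 and 4796 in VHL-r and 4213, 4794 and 4379 in R4VPL3-1, lowest in replicate 1 of each compound and overlapping, with -0.075 (adjusted p = 0.395) for VHL-r and -0.10 (adjusted p = 0.212) for R4VPL3-1. UQCR10, a small accessory subunit, was at 1109.7, 1104 and 1073 normalized counts in DMSO, 1039.7, 1116 and 1071 in VHL-r and 981, 1046 and 995 in R4VPL3-1. Its R4VPL3-1 libraries lay below those of DMSO, with -0.12 (standard error 0.057, 95% interval -0.24 to -0.0027, adjusted p = 0.132). UQCRB, a subunit near the ubiquinone site, had -0.071 (adjusted p = 0.334) for VHL-r and 0.0097 (adjusted p = 0.914) for R4VPL3-1, from levels of 3487, 3565 and 3437 normalized counts in DMSO, 3449, 3199 and 3344 in VHL-r and 3439, 3464 and 3659 in R4VPL3-1. UQCRHL was at 305, 286 and 285 normalized counts in DMSO, 290.2, 286 and 352 in VHL-r and 276, 289.5 and 310.5 in R4VPL3-1, overlapping, and its reads are uncertain, as stated above.

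In complex IV, 12 genes were tested and none was called, with median differences of -0.011, -0.036 and -0.031. COX4I1, the largest nuclear-encoded subunit and the place where ATP binds to slow the enzyme, was at 8219, 8104 and 8031 normalized counts in DMSO, 7335, 8172 and 8541 in VHL-r and 7469, 7994 and 8029 in R4VPL3-1. The R4VPL3-1 libraries lay below those of DMSO, the nearest at 8029 and 8031, and the difference was -0.053 (standard error 0.05, 95% interval -0.16 to 0.052, adjusted p = 0.5). COX5A was at 3994, 4128 and 3881 normalized counts in DMSO, 3846, 3973 and 4044 in VHL-r and 3789, 3908 and 3922 in R4VPL3-1, overlapping, with -0.047 (adjusted p = 0.493) for R4VPL3-1. COX5B, the zinc-binding subunit, was at 2753, 2656 and 2727 normalized counts in DMSO, 2409.7, 2674 and 2896 in VHL-r and 2409, 2646 and 2624 in R4VPL3-1, with -0.084 (adjusted p = 0.335) for R4VPL3-1, whose libraries lay below those of DMSO. The VHL-r libraries of COX5B spread on both sides of the DMSO libraries.

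The other genes of complex IV with the lowest adjusted p overlapped between the treatments. COX6B1, which faces cytochrome c, was at 4839, 4801 and 4534 normalized counts in DMSO, 4328, 4551 and 5042 in VHL-r and 4239, 4605 and 4698 in R4VPL3-1, with -0.067 (adjusted p = 0.427) for R4VPL3-1. COX7C was at 4278, 4376 and 4178 normalized counts in DMSO, 3929.8, 3980.2 and 4308 in VHL-r and 3871, 4161 and 4511 in R4VPL3-1, with -0.072 (adjusted p = 0.407) for VHL-r. Above DMSO, COX7B had 0.042 (adjusted p = 0.611) and COX6C 0.051 (adjusted p = 0.641) in R4VPL3-1, from levels of 2979, 3283 and 2929.6 normalized counts in DMSO, 3226, 3139 and 2989.7 in VHL-r and 3094, 3084 and 3278 in R4VPL3-1 for COX7B and of 1458, 1567 and 1310.2 normalized counts in DMSO, 1421, 1517 and 1477 in VHL-r and 1384, 1483 and 1623 in R4VPL3-1 for COX6C. COX7A2L, which joins complexes III and IV in supercomplexes, was at 2193, 2469 and 2106 normalized counts in DMSO, 2189, 2246 and 2297 in VHL-r and 2143, 2139 and 2305 in R4VPL3-1. It overlapped in all comparisons, with differences of -0.0048 and -0.037 from DMSO.

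In complex V, 16 genes were tested and none was called, with median differences of -0.026, -0.046 and -0.015, and 13 of the 16 differences were below 0 in each comparison with DMSO. ATP5F1B, the most abundant of the 68 by normalized count, was at 31212, 30997 and 30511 normalized counts in DMSO, 29663, 31130.4 and 32505 in VHL-r and 30079.5, 31337 and 32208 in R4VPL3-1. The treatments overlapped, and its differences were 0.008 (standard error 0.043, 95% interval -0.081 to 0.10, adjusted p = 0.93) for VHL-r and 0.014 (standard error 0.043, 95% interval -0.075 to 0.10, adjusted p = 0.863) for R4VPL3-1. ATP5F1A, the alpha subunit that surrounds the catalytic sites together with beta, was at 12612, 12869.8 and 11857 normalized counts in DMSO, 11936, 12441 and 12986 in VHL-r and 11991, 12453 and 13001 in R4VPL3-1, with 0.00094 and 0.0042. The other F1 genes ATP5F1C, ATP5F1D and ATP5F1E had differences between -0.10 and -0.014 from DMSO.

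The ring of c subunits that turns in the membrane is made from 3 genes, ATP5MC1, ATP5MC2 and ATP5MC3, whose mature proteins are identical. Per kilobase, ATP5MC2 was the most abundant at 8192, ahead of ATP5MC1 at 3090.0 and ATP5MC3 at 1843. ATP5MC3 was at 4813, 5043 and 4812 normalized counts in DMSO, 4604, 4833 and 4973 in VHL-r and 4432, 4458 and 4934 in R4VPL3-1, with -0.087 (adjusted p = 0.217) for R4VPL3-1, and overlapped DMSO in replicate 3 of R4VPL3-1. ATP5PF, of the peripheral stalk, was at 2912, 2946 and 2864 normalized counts in DMSO, 2728, 2775 and 2889 in VHL-r and 2552, 2682 and 2982 in R4VPL3-1, with -0.089 (adjusted p = 0.25) for R4VPL3-1. Without R4VPL3-1 replicate 3, ATP5MC3 (adjusted p = 0.0406), ATP5PF (0.03) and ATP5F1E (0.0338) were called lower than in DMSO. ATP5MK, which helps ATP synthase form dimers, was at 4402, 4648 and 4347 normalized counts in DMSO, 4182, 4234 and 4267 in VHL-r and 4197, 4233 and 4576 in R4VPL3-1, and its VHL-r libraries lay below those of DMSO, with -0.078 (adjusted p = 0.27).

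ATP5IF1, the inhibitor that stops ATP synthase from running backwards when the membrane loses its potential, was at 1767, 1879 and 1799 normalized counts in DMSO, 1805, 1935 and 2016 in VHL-r and 1777, 1799.8 and 1815 in R4VPL3-1. The treatments overlapped. Its difference was 0.079 (standard error 0.052, 95% interval -0.03 to 0.19, adjusted p = 0.341) for VHL-r, -0.014 (standard error 0.052, 95% interval -0.12 to 0.10, adjusted p = 0.888) for R4VPL3-1 and -0.093 (adjusted p = 0.626) between the compounds. ATP5MG, limited by the overlap described above, was at 12.7, 16.7 and 11.2 normalized counts in DMSO, 14, 12.6 and 13.3 in VHL-r and 12.1, 15.9 and 19.3 in R4VPL3-1, too few counts to bound its difference from DMSO, which was 0.20 (standard error 0.31, 95% interval -0.45 to 0.86, adjusted p = 0.697) for R4VPL3-1.

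Genes were also counted whose 3 libraries of one treatment did not overlap those of the other. In VHL-r against DMSO, 3 subunit genes were separate and higher (NDUFV3, NDUFA8 and UQCRC2) and 3 lower (SDHC, ATP5F1D and ATP5MK), of 68, where 17.1% and 17.2% of all genes tested were. In R4VPL3-1 against DMSO, 3 were higher (NDUFV3, NDUFA6 and UQCRC2) and 7 lower (among them NDUFA3, NDUFS6, UQCR10, COX4I1, COX5B and ATP5F1C), where 19.1% and 18.9% of all genes were. In R4VPL3-1 against VHL-r, 2 were higher (NDUFA6 and NDUFB1) and 4 lower (NDUFA3, NDUFA8, NDUFB11 and NDUFS4), where 6.99% and 7.11% of all genes were.

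More of the differences from DMSO lay below 0 than above it, 48 of 68 for VHL-r and 46 of 68 for R4VPL3-1, with medians of -0.018 and -0.032, beside 7806 and 7842 of all 15230 genes and medians of -0.0045 and -0.0063. Of the 5862 genes whose mean reached 1000, 3260 and 3455 lay below 0, with medians of -0.013 and -0.025, nearer to those of the subunit genes. Taking the median over the 68 genes of the log2 difference from the DMSO mean in each library, DMSO gave 0.0069, 0.023 and -0.022, VHL-r -0.06, -0.017 and 0.031 and R4VPL3-1 -0.08, -0.021 and 0.035. Replicate 3 of both compounds thus lay above every DMSO library, and replicate 1 of both below. Without VHL-r replicate 1 the median over the fitted differences from DMSO was 0.0089, against -0.018 with all libraries, and without R4VPL3-1 replicate 1 it was -0.0093, against -0.032, still below 0.

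The order of the libraries was alike across the complexes. For complex IV the library medians were -3.8e-05, 0.038 and -0.039 in DMSO, -0.11, 0.0031 and 0.046 in VHL-r and -0.10, -0.034 and 0.067 in R4VPL3-1, the widest range of the complexes. For complex V they were -0.0044, 0.039 and -0.026, -0.073, -0.029 and 0.022 and -0.11, -0.049 and 0.034. In each of the 5 complexes, replicate 1 was the lowest and replicate 3 the highest library of both compounds, and replicate 3 was the lowest of the DMSO libraries. Over all genes tested the library medians lay between -0.0059 and 0.0066.

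**Figure D4:**
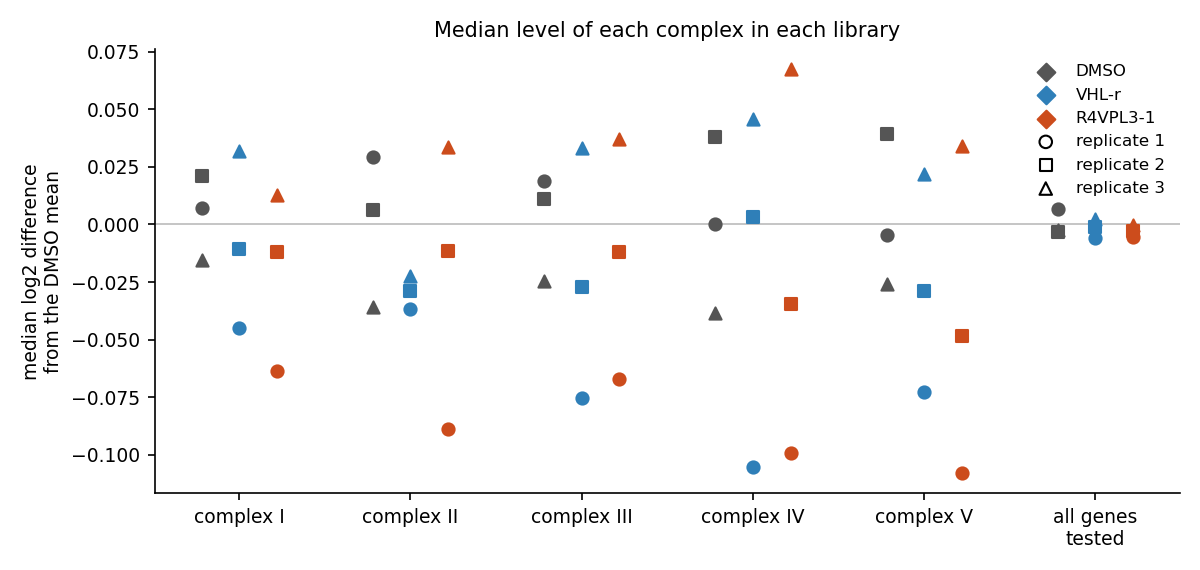
The median log2 difference from the DMSO mean over the tested genes of each complex, and over all genes tested, in each of the 9 libraries. Colours are treatments and shapes are replicates: in every complex replicate 1 is the lowest and replicate 3 the highest library of both compounds.

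As a share of all normalized counts, the 68 genes made up 0.797% ± 0.013 in DMSO, 0.796% ± 0.028 in VHL-r and 0.788% ± 0.026 in R4VPL3-1 (SD, n = 3 each), differences smaller than the spread between replicates. Complex V alone held 0.316% ± 0.0058, 0.316% ± 0.01 and 0.313% ± 0.013, and complex I 0.208% ± 0.0027, 0.208% ± 0.0079 and 0.205% ± 0.0032.

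VHL-r is a part of R4VPL3-1, and at the same dose and time the larger molecule was not told apart from it by any of the 68 subunit genes, each adjusted over all 15230 genes. The 95% intervals held 0 for all 68. The smallest adjusted p belonged to NDUFB1, an accessory subunit of the membrane arm of complex I, at 0.14 (standard error 0.071, 95% interval -0.013 to 0.28, adjusted p = 0.579). It stood at 576, 599 and 611 normalized counts in DMSO, 514, 578 and 538 in VHL-r and 578, 589 and 623 in R4VPL3-1, with the R4VPL3-1 libraries above those of VHL-r and both overlapping DMSO. Next came ATP5IF1 and UQCRB, the latter with 0.08 (standard error 0.046, 95% interval -0.016 to 0.18, adjusted p = 0.638). The intervals of 62 genes lie within a 1.2-fold change, and differences inside them may exist that 3 libraries a treatment do not show.

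Several subunits of complex IV exist as isoforms of particular tissues, and for COX4 and COX7A these libraries held nearly only the common form. COX4I1 had a mean of 7988 normalized counts, and COX4I2, the lung form that low oxygen can induce, 0.111, with 1 read in 1 of 9 libraries. COX7A2 had 2567, and its muscle form COX7A1 was listed at 0. COX6B1 had 4626 and the testis form COX6B2 0.879, a value left uncertain because 43.55% of its exon bases lie inside another gene on the same strand. Isoforms of COX6A and COX8 were not compared, since COX6A1 and COX8A are among the genes near 0 described above. COX7B2, the testis form of COX7B, was an exception, with a mean of 229.9 and 413 per kilobase beside 1273 for COX7B, and differences of 0.03 and -0.026 from DMSO.

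NDUFA4, a subunit of complex IV, was at 3559.6, 3585 and 3538 normalized counts in DMSO, 3301, 3703 and 3690.3 in VHL-r and 3376, 3513 and 3873 in R4VPL3-1. Its differences from DMSO were -0.00043 for VHL-r and 0.0084 for R4VPL3-1. NDUFA4L2, which hypoxia-inducible factor can induce, was at 38.1, 31.5 and 39.5 normalized counts in DMSO, 27, 43.1 and 43 in VHL-r and 43, 30.8 and 54.6 in R4VPL3-1, overlapping, with an interval from -0.31 to 0.71 for R4VPL3-1 against DMSO that leaves more than a 1.5-fold rise possible at this depth.

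The 13 subunits encoded by mitochondrial DNA, which join the nuclear ones in complexes I, III, IV and V, are given beside them. In VHL-r against DMSO 0 of 13 were called by limma, also at an unadjusted p under 0.05. In R4VPL3-1 against DMSO 7 rose and 1 fell, where 13.1% and 11.8% of all genes were called, with a median of 0.17 beside -0.032 for the 68 nuclear genes. The difference between the 2 sets was not tested. Leaving out single libraries, between 5 and 8 rose and between 0 and 1 fell. MT-CYB of complex III rose by 0.22 (adjusted p = 0.00114), MT-ATP8 of complex V by 0.21 (adjusted p = 0.00399), and MT-ND1 and MT-ND4 of complex I by 0.19 (adjusted p = 0.00517) and 0.21 (adjusted p = 0.00572). The gene that fell, named outside the order of adjusted p, was MT-CO1 of complex IV, which had -0.17 (adjusted p = 0.0176), a call that ended when DMSO replicates 2 or 3 were left out, and likewise R4VPL3-1 replicates 1 or 2. Together these transcripts made up 2.04% ± 0.078 of all normalized counts in DMSO, 2.04% ± 0.12 in VHL-r and 2.18% ± 0.11 in R4VPL3-1. In the same libraries the medians of the nuclear genes of complexes I, III, IV and V in R4VPL3-1 against DMSO were -0.021, -0.011, -0.036 and -0.046.

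Of 60 assembly factors, 48 were tested, and in VHL-r against DMSO 2 rose and 3 fell, in R4VPL3-1 against DMSO 2 rose and 4 fell, with medians of -0.010 and -0.030. These are 10.4% and 12.5% of the list, beside 19.8% and 24.9% of all genes, and leaving out DMSO replicate 2 took the R4VPL3-1 counts to 1 and 2. COX19, a copper-binding factor for complex IV, rose by 0.40 (adjusted p = 0.00445) and 0.93 (adjusted p = 2.32e-07). Its exons lie partly inside ADAP1 on the same strand, so its reads are uncertain. Overlaps of the other genes of this and the following lists, tested or not, are not given here. SDHAF1, which helps insert the iron-sulfur clusters of SDHB, fell by 0.57 (adjusted p = 9.31e-05) and 0.39 (adjusted p = 0.00325). TMEM186, a factor for complex I, had -0.55 (adjusted p = 0.000307) and -0.39 (adjusted p = 0.00502), and COA7, a factor for complex IV, -0.20 (adjusted p = 0.00243) and -0.15 (adjusted p = 0.0168), both falls. The R4VPL3-1 call of COA7 was lost without DMSO replicate 2 or R4VPL3-1 replicate 1, with adjusted p up to 0.0764. SDHB itself was not called, with the values given above.

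Among 18 regulators of mitochondrial biogenesis, all tested, 4 rose and 5 fell in VHL-r against DMSO, and 5 rose and 5 fell in R4VPL3-1 against DMSO, 50% and 55.6% of the list beside 19.8% and 24.9% of all genes. Part of these counts rested on single libraries. For R4VPL3-1 they were 2 and 4 without R4VPL3-1 replicate 1, 3 and 4 without its replicate 2, 5 and 3 without its replicate 3, and 5 and 2, 3 and 3, and 3 and 5 without DMSO replicates 1, 2 and 3. For VHL-r 3 fell without DMSO replicate 1 or VHL-r replicate 2. NRF1, a transcription factor of many subunit genes, rose by 0.31 (adjusted p = 0.000696) and 0.35 (adjusted p = 0.00015). POLG, the mitochondrial DNA polymerase, rose by 0.35 (adjusted p = 5.86e-06) and 0.44 (adjusted p = 1.82e-07). MTERF1, a termination factor of mitochondrial transcription, had -0.60 (adjusted p = 2.93e-06) and -0.71 (adjusted p = 1.63e-07), and TWNK, the mitochondrial helicase, -0.16 (adjusted p = 0.0214) and -0.31 (adjusted p = 4.68e-05), all falls. The VHL-r call of TWNK was lost when DMSO replicate 1 or 3, or VHL-r replicate 1 or 2, was left out, with adjusted p up to 0.118. NDUFV3 was the subunit gene called in these same comparisons.

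Around the chain, 25 of 26 genes for electron carriers and exchange were tested and SLC25A6, an ADP/ATP carrier, was the gene called in each comparison with DMSO, with -0.18 (adjusted p = 0.00722) and -0.15 (adjusted p = 0.0163). Its R4VPL3-1 call was lost without DMSO replicate 1 or R4VPL3-1 replicate 1, with adjusted p up to 0.0942. A list of 19 genes for the citric acid cycle takes in PDHX of the pyruvate dehydrogenase complex, which is not an enzyme of the cycle itself. Of the 19, 1 rose and 1 fell in VHL-r against DMSO, and 0 rose and 2 fell in R4VPL3-1 against DMSO. These are 2 of 19 each time, beside 19.8% and 24.9% of all genes. Without R4VPL3-1 replicate 1 the R4VPL3-1 counts were 0 and 0. PDHX, which anchors part of the pyruvate dehydrogenase complex, fell in both, by 0.19 (adjusted p = 0.00665) and 0.19 (adjusted p = 0.00649), the latter call lost without R4VPL3-1 replicate 1 (adjusted p = 0.0596). In R4VPL3-1 against VHL-r none of either list was called by limma, with 0 genes of each at an unadjusted p under 0.05.

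The promoters of the subunit genes were searched for 3 short motifs, on both strands, in windows of 300 bases from RefSeq (GRCh38.p14), each with 250 bases before the start and 50 after it. The motifs were GCGCANGCG for NRF1, CCGGAAG for the ETS family, to which GABPA belongs, and AAGATGGCG for YY1. The last letters of the ETS motif can be the first of the YY1 motif, so the 2 can overlap. Of the 68 genes, 55 matched a window by symbol, and where a symbol had several windows the first was taken. A window therefore need not hold the start of the transcript counted. That of NDUFA5 (chr7:123601602-123601901) lies outside the span of the gene, from 123536997 to 123557904. The NRF1 letters were in 14 of 55 windows, or 25.5%, beside 14.3% of the windows of 10947 tested genes and 8.05% of all 27305 windows. The ETS letters were in 16, or 29.1%, beside 18.6% and 10.7%. The YY1 letters were in 6, or 10.9%, beside 3.78% and 1.85%. A match is a description of the letters and not of binding.

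By complex, at least 1 of the 3 motifs was in 13 of 26 windows for complex I, 1 of 1 for complex II, 5 of 6 for complex III, 3 of 9 for complex IV and 8 of 13 for complex V, and 30 of 55 in all, beside 32.1% of the windows of tested genes. Among the 9 windows of complex IV, 3 held the ETS letters and 0 held those of NRF1 or YY1.

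One window is shown for each of complexes II to V, chosen among those with the most kinds or copies of motif, with the motifs in capitals. In SDHB and UQCRC1 the YY1 letters lie just after the start, in UQCRC1 both copies of the NRF1 letters stand before it on the opposite strand, and ATP5PF holds all 3 kinds. The windows are chr1:17053983-17054282 (minus strand), chr3:48609597-48609896 (minus strand), chr2:97645812-97646111 (plus strand) and chr21:25735005-25735304 (minus strand), each written 5′ to 3′ on the strand of its gene.
SDHB: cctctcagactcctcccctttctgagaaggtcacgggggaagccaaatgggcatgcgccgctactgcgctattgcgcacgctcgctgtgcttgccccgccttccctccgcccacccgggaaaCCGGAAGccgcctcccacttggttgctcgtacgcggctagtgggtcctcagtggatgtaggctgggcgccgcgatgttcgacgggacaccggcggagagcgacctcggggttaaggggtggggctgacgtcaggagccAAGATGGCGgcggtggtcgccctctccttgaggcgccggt
UQCRC1: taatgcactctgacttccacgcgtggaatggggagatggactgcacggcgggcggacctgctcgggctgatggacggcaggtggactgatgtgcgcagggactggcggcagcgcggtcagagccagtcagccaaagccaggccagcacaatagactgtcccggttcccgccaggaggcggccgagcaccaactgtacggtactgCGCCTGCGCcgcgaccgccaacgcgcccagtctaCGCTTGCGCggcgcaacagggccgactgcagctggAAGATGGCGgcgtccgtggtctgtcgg
COX5B: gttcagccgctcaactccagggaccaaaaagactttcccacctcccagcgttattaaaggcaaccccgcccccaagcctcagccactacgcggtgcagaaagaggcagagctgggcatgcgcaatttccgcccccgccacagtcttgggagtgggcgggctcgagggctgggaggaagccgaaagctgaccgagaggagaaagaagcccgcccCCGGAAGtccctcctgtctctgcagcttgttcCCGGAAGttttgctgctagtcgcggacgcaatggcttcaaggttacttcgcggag
ATP5PF: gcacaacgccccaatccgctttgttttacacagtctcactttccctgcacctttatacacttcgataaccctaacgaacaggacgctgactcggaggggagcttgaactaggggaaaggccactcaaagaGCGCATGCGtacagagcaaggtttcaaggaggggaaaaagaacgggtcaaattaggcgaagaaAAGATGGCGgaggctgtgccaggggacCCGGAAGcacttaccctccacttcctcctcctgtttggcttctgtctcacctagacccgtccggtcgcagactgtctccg
None of these 4 genes was called by limma with all 9 libraries, with differences of -0.017, -0.011, -0.084 and -0.089 in R4VPL3-1 against DMSO.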

How the data were processed

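Poly(A) RNA of 9 libraries was sequenced, 3 biological repeats for each of DMSO, VHL-r and R4VPL3-1. The authors deposited 1 table of expression signal, reads per gene of GRCh38 divided by a DESeq2 (1.36.0) size factor. Every value was a whole number of reads, within 0.1, times the value of 1 read in its library, which gave the reads back. All value columns were used.

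Genes with a mean of at least 10 were tested with limma (3.58.1, R 4.3.3) on log2(value + 1) with an intensity trend, and called where the p adjusted by Benjamini-Hochberg did not exceed 0.05. Errors are SDs over 3 libraries. The recovered reads were also tested with edgeR (4.0.16) and DESeq2 (1.42.0), and further alternatives were other pseudocounts, filters, scalings and sets of libraries. Overlaps and lengths come from GENCODE 44 and promoters from RefSeq. The tests were tried on simulated data.

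The members and lists were chosen with earlier results of these data known. Library values are given for defining subunits of each complex, for NDUFA4, NDUFA4L2, COX7A2L and ATP5IF1, and for up to 3 genes per complex and direction with the lowest adjusted p against DMSO. Of other lists, up to 4 genes are named by lowest adjusted p. MT-CO1, NDUFB1, COX7B2, the genes near 0 and the genes called without 1 library were singled out after their values were seen. The values of 1 gene are not reported here.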

Additional observations from a re-analysis of the deposited data

Results flagged for a closer look

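The 5 genes here differed between R4VPL3-1 and VHL-r by limma's test of that difference, adjusted over all genes. None is a nuclear-encoded subunit. MT-CYB was at 45478, 44538 and 47126 normalized counts in DMSO, 44672, 48193 and 43761 in VHL-r and 54165, 50772 and 54369.5 in R4VPL3-1. All 3 R4VPL3-1 libraries lay above the other 6, with 0.22 (adjusted p = 0.00709), and the call was lost without VHL-r replicate 3. MT-ND4 was at 86515, 88946 and 94245 normalized counts in DMSO, 86297, 95286 and 84019 in VHL-r and 106294, 97228 and 107987 in R4VPL3-1, again with R4VPL3-1 above the rest, and 0.23 (adjusted p = 0.0202). Leaving out replicate 1 or replicate 3 of either compound ended that call.

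MT-ND4L, whose gene overlaps MT-ND4, was at 11178, 12009 and 11441 normalized counts in DMSO, 10292, 11924 and 10354 in VHL-r and 13323, 12324 and 14354 in R4VPL3-1, with 0.30 (adjusted p = 0.00448). MT-ATP8, whose gene overlaps MT-ATP6, was at 6683, 7543 and 7590.2 normalized counts in DMSO, 7408, 7514 and 6933 in VHL-r and 8483, 8140.3 and 8501 in R4VPL3-1, with 0.20 (adjusted p = 0.0379), a call lost when any 1 library of either compound was left out. Reads of these overlapping genes are uncertain individually. Leaving out single libraries, between 1 and 4 of the 13 mitochondrial subunits passed the test on the higher side in R4VPL3-1, with 1 on the lower side without R4VPL3-1 replicate 3. With limma's robust option and with DESeq2 on the recovered reads, 8 were higher and 0 lower.

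COX19 was at 306, 293 and 349.9 normalized counts in DMSO, 412, 441 and 397 in VHL-r and 676, 617 and 526 in R4VPL3-1, lowest in DMSO, higher in VHL-r and highest in R4VPL3-1 without overlap. Its difference between the compounds was 0.53 (adjusted p = 0.00213), called in every alternative run, and its overlap with ADAP1 on the same strand leaves its reads uncertain.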

How the results depend on the processing

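The counts of subunit genes called stayed at 1 higher and 0 lower in both comparisons with DMSO, and at 0 and 0 between the compounds, under other pseudocounts, a mean of at least 50, TMM or upper-quartile scaling, limma's robust option, edgeR, DESeq2 and fits of only the 6 libraries compared. With no filter on low values, 0 were called higher in VHL-r against DMSO and 0 in R4VPL3-1 against DMSO, with adjusted p = 0.0593 and 0.0503 for NDUFV3. Leaving out 1 library at a time, VHL-r against DMSO gave 0 to 1 higher and 0 lower, with the median difference from -0.044 to 0.0089. R4VPL3-1 against DMSO gave 0 to 1 higher and 0 to 3 lower, with the median from -0.055 to -0.0093. R4VPL3-1 against VHL-r gave 0 and 0, with the median from -0.045 to 0.019. With the replicate number as a block the counts were 1 and 0, 1 and 0, and 0 and 0. Over all genes the block gave 3451, 4241 and 389 calls, beside 3016, 3792 and 285 without it. Same-numbered libraries correlated in their deviations between -0.0056 and 0.12, all but the lowest above 0, and other pairs between -0.15 and 0.098. On the third principal component of all genes tested, with 9.11% of the variance, replicate 3 lay at 16.2 in DMSO, 10.3 in VHL-r and 14.1 in R4VPL3-1. The other libraries lay between -12.6 and -2.5 on it. The numbers were not taken as pairs in the main fit, and an effect shared by same-numbered libraries was not tested. Of the 68 genes, 67, 64 and 68 were called under no alternative in the 3 comparisons, and 38, 27 and 45 of these changed the sign of their uncalled difference under at least 1, so no direction is read from them. Scalings moved the median of all genes by at most 0.018. With 3 libraries a treatment, the median 95% interval reached 0.11 on the log2 scale to either side of the difference.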

Other observations

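The nuclear-encoded subunits have many processed pseudogenes, and almost no reads were counted for these. Their overlap with other genes is not given here, and its part in these low values was not tested. Of 161 pseudogene entries whose names match the subunits, 3 had a mean of at least 10 normalized counts, COX6A1P2 at 17.2, UQCRFS1P1 at 15.8 and NDUFV2P1 at 14.6. All 161 together had a summed mean of 73.6, which is 0.0326% of the sum over the subunit genes. Their sum lay between 64.5 and 86.02 in the 9 libraries. For COX6A1 and NDUFV2 the pseudogene mean was above that of the named gene, at 3.93 and 0.312. Both named genes are among the 14 inside another gene, from which no reading of expression was taken. They share 25.34% and 19% of their 100-base windows with another place in the genome.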
